A study of Mus musculus with 405 samples.

Results

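Metallothionein genes Mt1, Mt2 and Mt3 and the zinc exporter gene Slc30a1 were followed through a chemical screen in cultured mouse cortical neurons. The genes were chosen by symbol, and all 4 were present among the 13304 genes of the table of the screen and among the 23893 genes of a table of counts for pyraclostrobin. The cultures came from embryos of C57BL/6J dams crossed to CAST/EiJ males, labelled E15, whereas the methods of the study give a slightly earlier age. Single chemicals or vehicle (DMSO) were added at DIV 7 (day in vitro) for 24 h. The screen held 344 libraries of 297 chemicals and 49 vehicle libraries, and 282 of the chemicals had 1 library. The count table held 4 libraries of pyraclostrobin at 0.1 μM and 4 of vehicle. Mitosis inhibitors were in the feeding medium, and each chemical was given at a dose found not to be cytotoxic. The cultures were mixed: markers of astrocytes, microglia and vascular cells were detected beside those of neurons. In such bulk samples, more cells of a type and more RNA per cell cannot be told apart.

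The question asked was whether dithiocarbamate fungicides that carry zinc or manganese move these genes in ways that other chemicals do not. Mancozeb (a manganese and zinc salt), maneb (a manganese salt) and metiram-zinc (a zinc complex) were compared with the rest of the library and with their metal-free relatives, thiram (a thiuram disulfide) and metam-sodium hydrate (a sodium salt). The metal-free relatives differ from the metal-containing compounds in structure as well, so metal and structure cannot be told apart in these comparisons. All 5 were tested at 10 μM. Mancozeb and thiram had 2 libraries each, and maneb, metiram-zinc and metam-sodium hydrate had 1 each.

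Metallothioneins are small, cysteine-rich proteins that bind zinc and copper ions and buffer the free metal in the cytosol. Mt1 and Mt2 are made in many cell types and are induced by metals, glucocorticoids and oxidative stress, whereas Mt3 is the brain form and is known to respond little to metals. Slc30a1 encodes ZnT1, the transporter that moves zinc out of the cell across the plasma membrane. When zinc rises, the zinc finger protein MTF-1, encoded by Mtf1, binds short metal response elements in promoters and raises transcription of Mt1, Mt2 and Slc30a1, and it is known to hold down Slc39a10, a gene for a zinc importer.

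In mm9, the genome build of the files, Mt3 (chr8:96676507-96678048), Mt2 (chr8:96696518-96697467) and Mt1 (chr8:96702989-96704225) lie in a row on the plus strand of chromosome 8, with Mt4 (chr8:96661104-96662931) before them. Slc30a1 (chr1:193730646-193737126) lies on the plus strand of chromosome 1. The 3 metallothionein transcripts are short, with 753, 556 and 538 annotated exon bases for Mt1, Mt2 and Mt3, against 5244 for Slc30a1 (GENCODE vM1). As paralogues, the metallothionein genes resemble each other in coding sequence, and how much reads were shared between them by the counting was not tested.

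The promoters are shown because MTF-1 is known to act through them. They are RefSeq windows of 300 bases on the plus strand of GRCm38.p6, from 250 bases before to 50 after the annotated start, at chr8:94178839-94179138 for Mt1, chr8:94172368-94172667 for Mt2, chr8:94152357-94152656 for Mt3 and chr1:191906531-191906830 for Slc30a1. Capitals mark matches to the core of the metal response element, searched as TGCACNC and TGCGCNC on both strands, with overlaps allowed.
Mt1: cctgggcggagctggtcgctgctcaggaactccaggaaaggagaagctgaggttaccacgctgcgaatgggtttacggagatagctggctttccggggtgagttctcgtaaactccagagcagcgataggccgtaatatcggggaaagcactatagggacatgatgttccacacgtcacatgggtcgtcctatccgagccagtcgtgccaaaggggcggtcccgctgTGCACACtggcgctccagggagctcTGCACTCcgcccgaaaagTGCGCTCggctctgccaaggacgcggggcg
Mt2: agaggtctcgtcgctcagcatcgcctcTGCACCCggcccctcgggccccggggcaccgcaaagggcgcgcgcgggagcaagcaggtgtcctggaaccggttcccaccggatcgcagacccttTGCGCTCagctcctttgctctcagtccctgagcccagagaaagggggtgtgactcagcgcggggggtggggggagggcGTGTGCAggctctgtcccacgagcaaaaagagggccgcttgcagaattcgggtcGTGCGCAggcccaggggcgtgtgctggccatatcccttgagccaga
Mt3: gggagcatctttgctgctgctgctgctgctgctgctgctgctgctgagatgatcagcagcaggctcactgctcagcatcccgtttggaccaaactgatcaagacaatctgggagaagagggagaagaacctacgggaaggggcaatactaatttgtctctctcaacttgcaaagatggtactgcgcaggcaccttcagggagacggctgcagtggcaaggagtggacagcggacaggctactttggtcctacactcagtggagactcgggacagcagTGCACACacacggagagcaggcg
Slc30a1: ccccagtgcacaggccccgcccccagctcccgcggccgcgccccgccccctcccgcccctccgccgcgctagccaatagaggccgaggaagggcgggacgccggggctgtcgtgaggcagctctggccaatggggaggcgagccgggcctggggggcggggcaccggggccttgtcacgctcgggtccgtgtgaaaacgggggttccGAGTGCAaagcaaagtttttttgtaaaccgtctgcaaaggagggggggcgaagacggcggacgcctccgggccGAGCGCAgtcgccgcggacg

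The Mt1 window held 3 matches and the Mt2 window 4. The Slc30a1 window held 2 and the Mt3 window 1. Of the 32851 RefSeq windows of this length, 25.7% held at least 1 match, 7.11% at least 2, 1.97% at least 3 and 0.517% at least 4, so a single match as in Mt3 was common. Among the 12785 windows of genes in the screen, these shares were higher, at 36.6%, 11.8%, 3.44% and 0.931%. The core of the antioxidant response element, searched as TGACNNNGC on both strands, was matched once in the Mt2 window and once in the Slc30a1 window. At least 1 such match was held by 12.4% of all windows and by 14.1% of those of genes in the screen. A match describes letters in these windows and was not tested as a site.

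Levels could be compared between genes only in the count table, per length of the annotated exons. In the vehicle libraries the median was 18.4 RPKM for Mt1 (range 12.9 to 83.5), 18.2 for Mt2 (12.3 to 114), 44.5 for Mt3 (41.99 to 129) and 11.1 for Slc30a1 (10.98 to 11.5). Mt3 thus had the highest median level of the 4 in vehicle, Mt1 and Mt2 overlapped each other across their range, and Slc30a1 lay below all of them in every library. Mt4, a metallothionein of stratified epithelia, had 0 counts in all 8 libraries.

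The values of the screen are deviations of a gene from its own median, given here on the log2 scale, so they carry no level. Among the 49 vehicle libraries, the SD of these deviations was 0.52 for Mt1 (lowest -1.96, median -0.10, highest 0.88), 0.33 for Mt2 (lowest -0.68, median 0.02, highest 0.65), 0.34 for Mt3 (lowest -0.67, median -0.02, highest 0.92) and 0.12 for Slc30a1 (lowest -0.27, median 0.06, highest 0.45). The pooled SD between libraries of the same chemical, over 14 chemicals with 2 to 10 libraries, was 0.49, 0.48, 0.37 and 0.26 in the same order of genes. A single library therefore places a chemical on Mt1 or Mt2 only roughly.

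No member was called with the metal-containing dithiocarbamates. For Mt1, the deviations were -0.26 and 0.00 in the 2 mancozeb libraries, 0.56 with maneb and 0.27 with metiram-zinc. For Mt2, they were -0.08 and 0.13 with mancozeb, 0.23 with maneb and 0.25 with metiram-zinc. All of these lay within the range of the vehicle libraries.

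For Mt3, the deviations were 0.08 and 0.29 in the mancozeb libraries, 0.08 with maneb and 0.10 with metiram-zinc. For Slc30a1, they were -0.25 and 0.13 with mancozeb, 0.10 with maneb and -0.13 with metiram-zinc. These values too lay within the vehicle range. With 1 median per chemical, the 3 metal-containing compounds differed from the other 294 chemicals by 0.21 for Mt1 (95% confidence interval -0.37 to 0.78), 0.11 for Mt2 (-0.39 to 0.61), 0.07 for Mt3 (-0.36 to 0.49) and -0.05 for Slc30a1 (-0.25 to 0.14).

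None of these differences passed limma's test (adjusted p of 0.962 to 0.987 over all genes). In that comparison 0 of 13304 genes (0%) were called at an adjusted p under 0.05 by limma, and 850 had an unadjusted p under 0.05. A variance trend in limma also called none. The interval for Mt1 reaches 0.78, so 3 chemicals leave room for a difference of that size.

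The 2 compounds that hold zinc, mancozeb and metiram-zinc, gave the same picture. Against the other 295 chemicals, their difference was 0.04 for Mt1 (95% confidence interval -0.66 to 0.75), 0.08 for Mt2 (-0.54 to 0.69), 0.09 for Mt3 (-0.43 to 0.61) and -0.12 for Slc30a1 (-0.35 to 0.12). The adjusted p lay between 0.906 and 0.997, and 0.0752% of all genes were called. Metal-responsive regulators, zinc exporters, zinc importers and copper genes were described beside the members, from lists of which 0 of 2, 0 of 8, 0 of 12 and 0 of 11 measured genes were called in this comparison. Mtf1 itself differed by 0.13 (SE 0.09, adjusted p = 0.807).

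Of 13 NRF2 targets (genes of the oxidative stress response), 2 were called higher against vehicle with mancozeb, 2 with metiram-zinc and 0 with maneb. Over all genes, 0.165%, 0.91% and 0.218% were called in these comparisons by limma, and the list medians were 0.45, 0.50 and 0.07. The called genes were the same with both zinc compounds. Against vehicle, mancozeb raised Hmox1, which encodes heme oxygenase 1, by 1.47 (SE 0.26, adjusted p = 0.000515) and Srxn1, which encodes sulfiredoxin, by 1.14 (SE 0.14, adjusted p = 1.00e-08). Metiram-zinc raised Hmox1 by 1.32 (SE 0.36, adjusted p = 0.0474) and Srxn1 by 1.10 (SE 0.19, adjusted p = 0.000389), all on the log2 scale in limma's library-level fit. In the same fit, Mt1 and Mt2 differed from vehicle by -0.02 (SE 0.35) and 0.06 (SE 0.27) with mancozeb and by 0.38 (SE 0.49) and 0.28 (SE 0.37) with metiram-zinc. None of these 4 differences was called, and whether Mt1 or Mt2 moved less than Hmox1 and Srxn1 was not tested. With metiram-zinc, 3 of 11 targets of ATF4 (a regulator of amino acid synthesis genes) were also called higher, Asns by 0.99, Atf4 by 0.84 and Psat1 by 0.67, as was 1 of 10 glucocorticoid targets, Tsc22d3, by 0.88.

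Thiram, which carries no metal, was the highest of all 297 chemicals for Mt1, Mt2 and Slc30a1. The 2 thiram libraries had deviations of 1.42 and 2.36 for Mt1, 1.13 and 2.05 for Mt2, and 0.19 and 1.16 for Slc30a1. Both libraries lay above the highest vehicle library for Mt1 and Mt2. For Slc30a1, replicate 2 lay above every vehicle library and replicate 1 lay within their range. Mt3 stood at -0.08 and 0.21, close to the vehicle mean of 0.03.

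Against the 49 vehicle libraries, thiram raised Mt1 by 2.00 (SE 0.35, adjusted p = 0.000222), Mt2 by 1.62 (SE 0.27, adjusted p = 6.07e-05) and Slc30a1 by 0.61 (SE 0.11, adjusted p = 0.00102). Mt3 differed by 0.04 (95% confidence interval -0.44 to 0.52, adjusted p = 0.976). The SEs rest on a spread pooled over all groups and not on the thiram libraries alone, which lay far apart for Slc30a1. Only 0.316% of the 13304 genes were called with thiram, 6 higher and 36 lower. The 6 higher genes were Mt1, Mt2 and Slc30a1 together with Gxylt2 (a glycosyltransferase gene), Clu (clusterin) and Atp1b2 (a subunit of the sodium pump), and the last 3 are named after their values were seen.

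The exact permutation test over libraries (two-sided, 1275 arrangements) gave p = 0.000784 for Mt1 and Mt2, the smallest it allows here, p = 0.00549 for Slc30a1 and p = 0.873 for Mt3. For Mt1 and Mt2 this value only restates that both thiram libraries lay above every vehicle library. None of these p-values was adjusted for the number of chemicals in the screen. The differences were larger in replicate 2 for all 3 genes, and that of Slc30a1 rested on it. Each fit without a replicate left 1 thiram library, and the SE for Mt1 rose from 0.35 to 0.48. Without replicate 2, the differences were 1.52 for Mt1, 1.16 for Mt2 and 0.12 for Slc30a1, and none was called (adjusted p of 0.212, 0.212 and 0.869). Without replicate 1, they were 2.47, 2.08 and 1.10, and all 3 were called (adjusted p of 0.00244, 0.000464 and 1.58e-07).

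The thiram libraries also differed from each other for the zinc transporters. Of 8 measured zinc exporters of the Slc30 family, Slc30a1 was called higher with thiram and no other was called. Of 12 measured zinc importers of the Slc39 family, Slc39a10, which encodes ZIP10, fell by 0.87 on the log2 scale (SE 0.12, adjusted p = 2.21e-07), and no other was called. Slc39a10 stood at -0.17 in replicate 1 and at -1.54 in replicate 2, against a vehicle range of -0.30 to 0.30. Its median with thiram was the lowest of the 297 chemicals.

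Without replicate 2 the Slc39a10 difference was -0.19 (adjusted p = 0.756), and without replicate 1 it was -1.56 (adjusted p = 1.17e-16). The same replicate was therefore farther from vehicle for Mt1, Mt2, Slc30a1 and Slc39a10. Mtf1, the gene of the regulator, stood at 0.24 and -0.05 in replicates 1 and 2 and differed from vehicle by 0.11 (SE 0.09, adjusted p = 0.734).

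Other lists moved little with thiram. None of 13 targets of NRF2 (the regulator of antioxidant genes), 10 heat shock genes, 11 targets of ATF4, 10 glucocorticoid targets or 11 copper genes was called. Their median differences were 0.23, 0.14, 0.01, 0.03 and 0.02, beside a median of 0.00 over all genes. Neither was any of 10 measured astrocyte markers (median -0.01), 4 microglia markers (0.33), 12 neuron markers (0.00), 6 oligodendrocyte lineage markers (0.19) or 4 endothelial and mural markers (0.08).

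**Figure D1:**
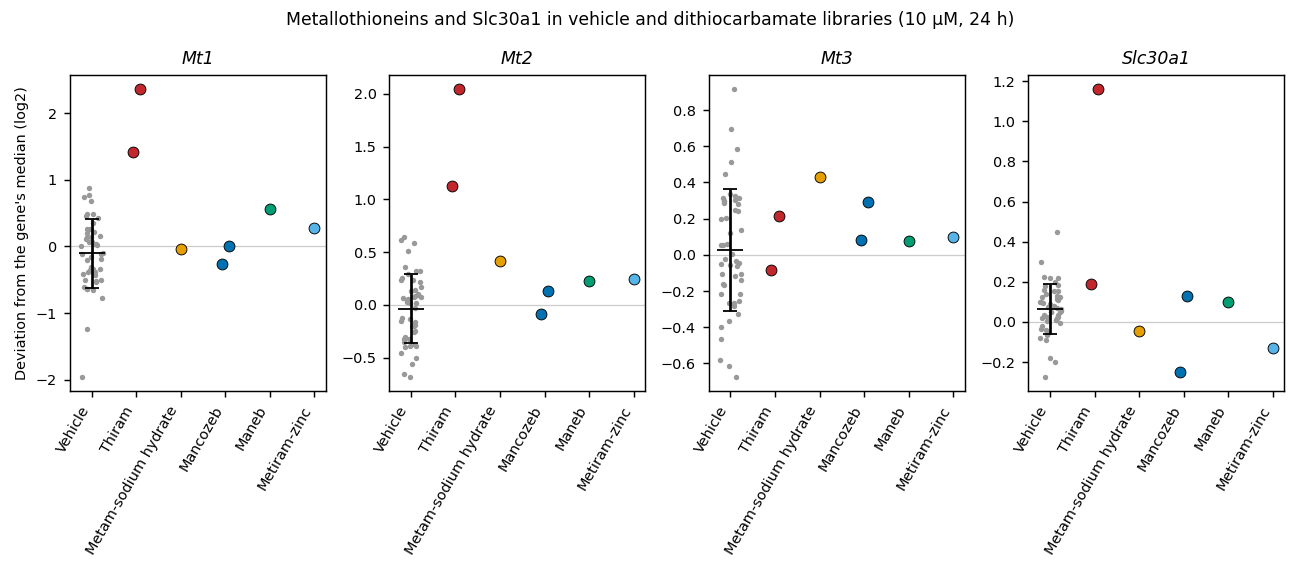
Deviation from the gene's median (log2, y axis) in each library of vehicle (grey, 49 libraries, with mean and SD) and of the 5 dithiocarbamates at 10 μM (coloured points, 1 per library), for Mt1, Mt2, Mt3 and Slc30a1. Both thiram points lie above all vehicle points for Mt1 and Mt2 and 1 of them does so for Slc30a1, while the points of mancozeb, maneb and metiram-zinc lie among the vehicle points in all 4 panels.

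The dithiocarbamates were then compared pair by pair at the matched dose and time. The 10 pairs of the 5 dithiocarbamates were tested in 1 fit, and over all genes and pairs together 0.0955% of tests were called. Mancozeb, with its metal, lay below thiram by 2.02 for Mt1 (95% confidence interval of mancozeb minus thiram -2.97 to -1.07), by 1.56 for Mt2 (-2.30 to -0.83) and by 0.73 for Slc30a1 (-1.05 to -0.42). Adjusted over the genes of that pair, limma's p was 0.0411 for Mt1, 0.0411 for Mt2 and 0.0237 for Slc30a1. Adjusted over all 10 pairs, it was 0.0561, 0.0529 and 0.0291, so only Slc30a1 stayed below 0.05.

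Metiram-zinc lay below thiram by 0.80 for Slc30a1 (adjusted p = 0.0232 within the pair and 0.0621 over all pairs). For Mt1 and Mt2, its differences from thiram were -1.62 and -1.34 (adjusted p of 0.161 and 0.126 within the pair). Maneb differed from thiram by -1.33 for Mt1 (95% confidence interval -2.50 to -0.16), -1.36 for Mt2 (-2.26 to -0.46) and -0.58 for Slc30a1 (-0.96 to -0.19), and none of these was called. Without thiram replicate 2, no member was called in any of the pairs with thiram. Without thiram replicate 1, Slc30a1 was called in all 4 of them. Leaving out mancozeb replicate 1 also ended the 3 calls between mancozeb and thiram, and leaving out mancozeb replicate 2 ended those of Mt1 and Mt2 (adjusted p of 0.104 and 0.0994).

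The metal-free compounds were compared with each other in the same fit. Metam-sodium hydrate stood at -0.04 for Mt1, 0.42 for Mt2, 0.43 for Mt3 and -0.04 for Slc30a1 in its single library. Thiram exceeded it by 1.93 for Mt1 (95% confidence interval 0.76 to 3.10), 1.17 for Mt2 (0.27 to 2.07) and 0.72 for Slc30a1 (0.33 to 1.10), but the adjusted p within the pair was 0.192, 0.351 and 0.144. In the 6 pairs without thiram, no member was called, and the wide intervals (for mancozeb against metiram-zinc, -1.57 to 0.77 for Mt1) do not show that those compounds act alike.

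As a class, the 3 metal-containing compounds lay below the 2 metal-free ones by 0.69 for Mt1 (95% confidence interval -1.59 to 0.21), 0.83 for Mt2 (-1.62 to -0.05) and 0.34 for Slc30a1 (-0.65 to -0.04). The adjusted p was 1.00 for each, 0% of all genes were called by limma, and 427 genes had an unadjusted p under 0.05. An exact permutation test of 3 against 2 chemicals cannot go below p = 0.1, and it gave that value for Mt2. Without thiram, the class difference for Mt1 turned to 0.27, and for Slc30a1 to 0.01. Metal and structure change together between these classes, so a difference cannot be assigned to either.

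**Figure D2:**
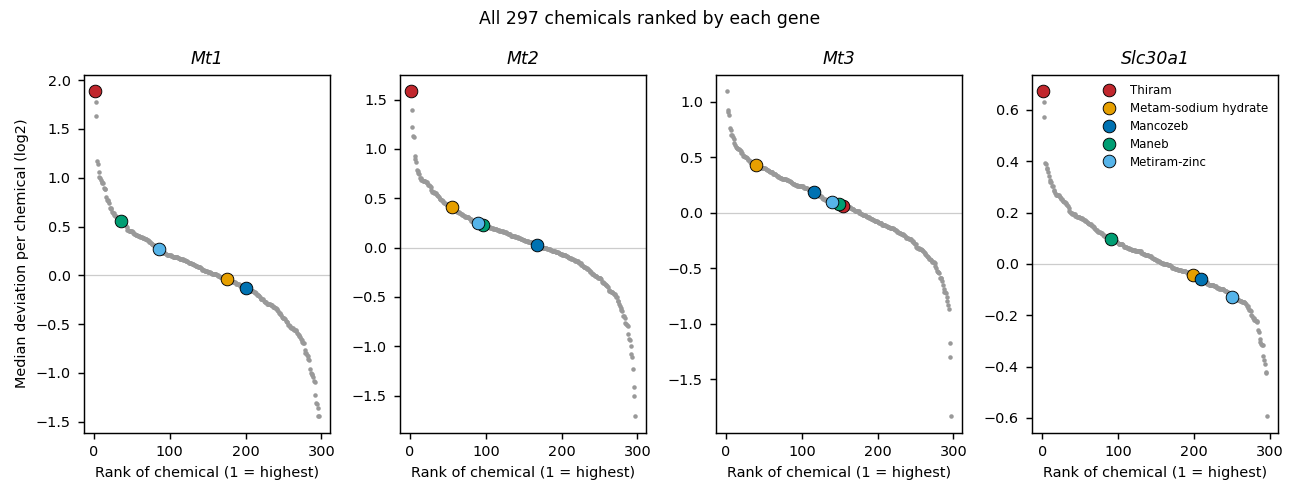
Median deviation of each of the 297 chemicals (log2, y axis) against its rank (x axis, 1 is the highest), in a panel for each gene, with the 5 dithiocarbamates in colour. Thiram is at rank 1 for Mt1, Mt2 and Slc30a1 and at rank 154 for Mt3, and mancozeb lies at ranks 200, 168, 116 and 210 for Mt1, Mt2, Mt3 and Slc30a1.

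Compounds related to the dithiocarbamates by breakdown, or holding another metal or metalloid, were set beside them without a test. Methyl isothiocyanate, a breakdown product of metam, stood at 0.95 for Mt1 (rank 10), 0.67 for Mt2 (rank 18) and 0.37 for Slc30a1 (rank 7) in its single library at 10 μM. Ethylenethiourea, a breakdown product of mancozeb and maneb, stood at -0.33 and -0.16 for Mt1 and at 0.13 and -0.09 for Slc30a1 in its 2 libraries. Dazomet at 1 μM stood at -0.07 for Mt1. The organotin fentin, at only 0.01 μM, stood at 0.30 for Mt1, and the organoarsenical cacodylic acid at 10 μM stood at 0.13 for Mt1 and -0.79 for Mt3. Among these, methyl isothiocyanate alone ranked among the 10 highest chemicals for Mt1 and Slc30a1, and it ranked 143 for Mt3.

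Across the whole library, the metallothioneins were also high with other chemicals, of which mainly the first in order are named. For Mt1, prallethrin at 1.05 and flumioxazin at 1.01, for example, also lay above the highest vehicle library (0.88). Below thiram, the highest medians for Mt1 were hexythiazox at 1.77, phosalone at 1.64, coumaphos at 1.17 and fenpyroximate at 1.15. For Mt2 they were fenpyroximate at 1.40, hexythiazox at 1.23, phosalone at 1.13 and pyraclostrobin at 1.12. All of these had 1 library. Hexythiazox is a mite growth regulator, phosalone and coumaphos are organophosphates, and fenpyroximate is an inhibitor of mitochondrial complex I.

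Marker lists lay outside the range of the vehicle libraries in several of these libraries. With fenpyroximate, the mean deviation was -0.71 for neuron markers (rank 294, lowest vehicle library -0.21), 1.40 for endothelial and mural markers (rank 1, highest vehicle library 0.56) and 0.79 for NRF2 targets (rank 6, highest vehicle library 0.16). With pyraclostrobin, it was -0.85 for neuron markers (rank 295), 1.22 for endothelial and mural markers (rank 2), 0.54 for astrocyte markers (rank 2, highest vehicle library 0.47) and 0.60 for NRF2 targets (rank 14). With phosalone, it was 1.63 for NRF2 targets (rank 1). With hexythiazox, it was 0.85 for microglia markers (rank 4, highest vehicle library 0.80) and 0.03 for NRF2 targets (rank 119). The part of these shifts in the metallothionein values was not tested.

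For Slc30a1, the chemicals after thiram were azamethiphos at 0.63, hexythiazox at 0.57, maleic hydrazide at 0.39 and dimethenamid at 0.39. Hexythiazox at 10 μM thus ranked in the first 3 for Mt1, Mt2 and Slc30a1, and its library had -0.47 for Slc39a10 and -0.07 for Mt3. Against vehicle its differences were 1.88 for Mt1 (SE 0.49, adjusted p = 0.0892) and 0.51 for Slc30a1 (SE 0.16, adjusted p = 0.225), neither of which was called.

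For Mt3 the order was another one. The highest medians were those of cyproconazole at 1.10, pyraclostrobin at 0.93, triadimefon at 0.91, spirodiclofen at 0.88 and prometryn at 0.76. Cyproconazole and triadimefon are both azole fungicides. None of these 5 was called for Mt3 against vehicle, and neighbours in each of these orders lay closer together than the spread between libraries of 1 chemical.

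At the other end, Mt1 was lowest with chlorpropham at -1.44, chlorpyrifos-methyl at -1.44 and folpet at -1.36. Mt2 was lowest with ethoprop at -1.71, chlorpyrifos-methyl at -1.51 and pyriproxyfen at -1.41. Mt3 was lowest with carfentrazone-ethyl at -1.84, bisphenol A at -1.30 and ametryn at -1.17. Slc30a1 was lowest with diethylhexyl pthalate at -0.59, etoxazole at -0.43 and flumetralin at -0.42. The lowest vehicle library for Mt1, at -1.96, lay below all of the chemicals.

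Tested 1 chemical at a time against vehicle, 0.607% of all gene and chemical tests were called. Mt1 was called with 2 chemicals (thiram and fenamidone, both higher), which is 0.673% of the 297. Mt2 was called with 6, or 2.02%: higher with thiram, fenpyroximate, pyraclostrobin, fenamidone and famoxadone, and lower with ethoprop. Slc30a1 was called with 3, or 1.01%: higher with thiram and topotecan and lower with diethylhexyl pthalate. Mt3 was called with carfentrazone-ethyl only, where it was lower. The shares for Mt1 and Mt3 were near the background, and thiram was the one chemical called for more than 2 of the 4 genes.

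Over the 297 chemicals, Mt1 and Mt2 moved together. Pearson's r was 0.70 (Spearman's rho 0.62), which made Mt2 the gene most like Mt1 of the whole table, and r stayed at 0.68 without thiram. For Mt1 and Mt3, and for Mt2 and Mt3, r was 0.34 each. Slc30a1 had an r of 0.18 with Mt1, 0.21 with Mt2 and -0.02 with Mt3, and without thiram the values with Mt1 and Mt2 were 0.14 and 0.17. Each point shares its library, its normalization and its depth between genes, so these values are a description.

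After each other, Mt1 and Mt2 were most like Cd81 (a tetraspanin, r = 0.45) and Ephx1 (epoxide hydrolase, r = 0.42) for Mt1, and like Sparc (a secreted matrix protein, r = 0.57) and Vim (vimentin, r = 0.55) for Mt2. Mt3 was most like Igfbp2 (r = 0.49), Vim (r = 0.46) and Ctsd (cathepsin D, r = 0.45). The genes most like Slc30a1 were 1700034H15Rik (r = 0.36), Vezf1 (r = 0.34) and Nuak1 (r = 0.33). Over the same chemicals, the mean of 12 neuron markers had an r of -0.32 with Mt1, -0.39 with Mt2 and -0.28 with Mt3, and the mean of 10 astrocyte markers had an r of 0.21, 0.25 and 0.19. In the same order, r was 0.42, 0.44 and 0.24 for the mean of 13 NRF2 targets and 0.24, 0.23 and 0.13 for 10 heat shock genes. For 11 ATF4 targets it was 0.22, 0.20 and 0.15, and for 4 microglia markers 0.09, 0.18 and 0.15. For 4 endothelial and mural markers it was 0.13, 0.24 and 0.20, and for 6 oligodendrocyte lineage markers -0.02, 0.04 and -0.03. The part of cell composition or of stress responses in these patterns was not tested.

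**Figure D3:**
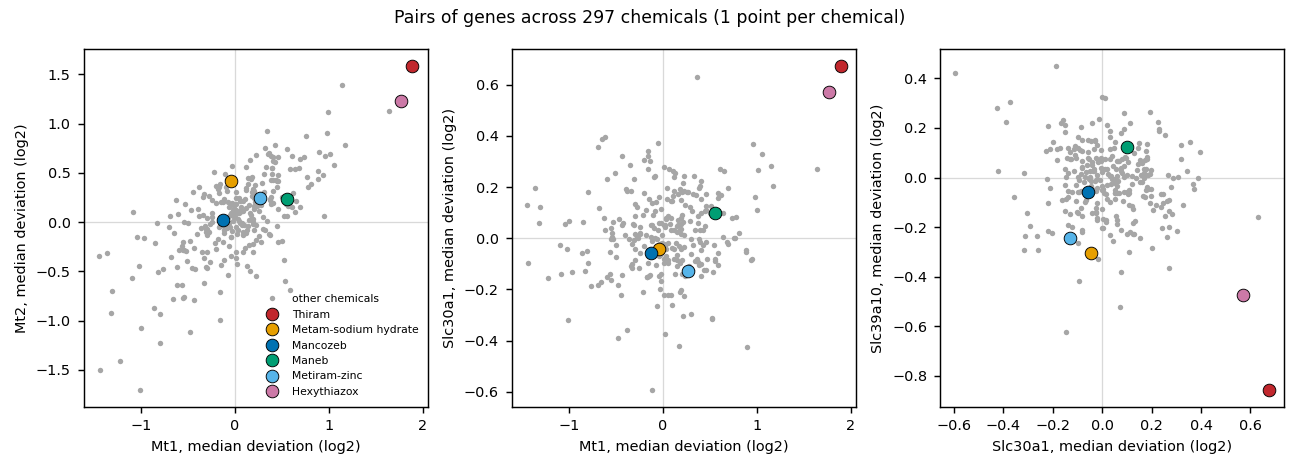
Median deviations (log2) of Mt2 against Mt1, of Slc30a1 against Mt1 and of Slc39a10 against Slc30a1, with 1 point for each of the 297 chemicals and the 5 dithiocarbamates and hexythiazox in colour. Thiram has the highest Mt1, Mt2 and Slc30a1 and the lowest Slc39a10 of all points, at 1.89, 1.59, 0.67 and -0.86, and hexythiazox, at 1.77, 1.23, 0.57 and -0.47, lies nearest to it in the middle and right panels.

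With fungicides that react with thiols by other chemistry, none of the 4 genes was called. Captan, captafol, folpet, chlorothalonil, TCMTB and methylene bis(thiocyanate) had Mt1 deviations of 0.59, 0.61, -1.36, 0.72 and -0.59 (2 libraries of chlorothalonil), 0.58 and -0.16 in this order. Their values fell on both sides of 0, even between libraries of chlorothalonil. Against the other 291 chemicals, the class differed by 0.03 for Mt1 (SE 0.21), -0.09 for Mt2 (SE 0.18), 0.01 for Mt3 (SE 0.15) and 0.08 for Slc30a1 (SE 0.07). The adjusted p was 0.999 for each, and 0.0526% of all genes were called. Captafol, chlorothalonil and methylene bis(thiocyanate) were given at 1 μM and the others at 10 μM.

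Inhibitors of mitochondrial complex III raised Mt1 and Mt2. Azoxystrobin (0.1 μM), famoxadone, fenamidone and trifloxystrobin (10 μM), fluoxastrobin (1 μM) and pyraclostrobin (0.1 μM) differed from the other 291 chemicals by 0.55 for Mt1 (SE 0.21, adjusted p = 0.0434) and 0.52 for Mt2 (SE 0.18, adjusted p = 0.0250). Mt3 differed by 0.32 (SE 0.15, adjusted p = 0.138) and Slc30a1 by 0.09 (SE 0.07, adjusted p = 0.434). In that comparison 20.5% of all genes were called, so 2 of 4 members stood beside a wide response.

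By library, Mt1 stood at 0.33 and 0.13 with azoxystrobin, 0.40 and 1.12 with famoxadone, 0.44 and 1.52 with fenamidone, 0.33 with trifloxystrobin, 0.09 with fluoxastrobin and 1.00 with pyraclostrobin. All 9 libraries were above 0 for Mt1, and 3 of them lay above every vehicle library. Mt2 stood at 0.19 and -0.55 with azoxystrobin, 0.46 and 1.29 with famoxadone, 0.54 and 1.26 with fenamidone, 0.56 with trifloxystrobin, 0.12 with fluoxastrobin and 1.12 with pyraclostrobin. For Mt2, azoxystrobin went the other way in 1 of its libraries, and its median of -0.18 ranked 227 of 297. The calls of Mt1 and Mt2 were lost without famoxadone, fenamidone, pyraclostrobin or trifloxystrobin (adjusted p of 0.0623 to 0.191), with the differences between 0.41 and 0.59. Of the lists, 3 of 12 zinc importers were called higher (Slc39a1 by 0.28, Slc39a14 by 0.27 and Slc39a7 by 0.14) and Slc39a3 fell by 0.20, while 2 of 8 zinc exporters fell, Slc30a3 by 1.02 and Slc30a10 by 0.33.

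Markers of other cell types moved in the same comparison. Of 10 astrocyte markers 6 were called higher and none lower (median 0.34), of 4 endothelial and mural markers 2 were called higher (0.48), of 4 microglia markers none was called (0.38), and all 12 neuron markers were called lower (-0.44). Of 13 NRF2 targets 3 were called higher, led by Hmox1 at 1.10. In stained cultures, the study saw no significant change in counts of neurons, astrocytes or microglia with fenamidone (10 μM, 24 h), which belongs to this class. The part of these markers in the values of Mt1 and Mt2 was not tested.

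**Figure D4:**
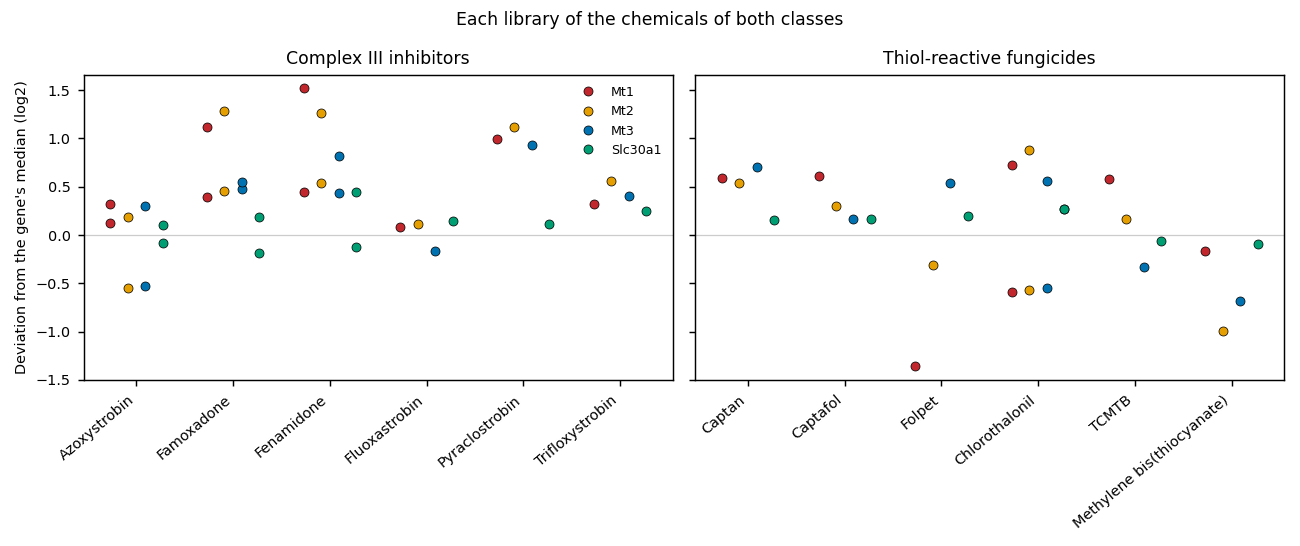
Deviation from the gene's median (log2, y axis) in each library of the 6 complex III inhibitors (left) and the 6 thiol-reactive fungicides (right), with 1 point per library and a colour for each of Mt1, Mt2, Mt3 and Slc30a1. Mt1 is above 0 in all libraries of the complex III inhibitors, whereas with the thiol-reactive fungicides it spreads from -1.36 to 0.72.

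The count table shows the same genes as counts for pyraclostrobin, and its pyraclostrobin library NSEQ428 carries the number of the pyraclostrobin library of the screen, so the tables are not independent. Mt1 had 481, 227, 287 and 218 counts in the pyraclostrobin libraries NSEQ428, NSEQ702, NSEQ703 and NSEQ704, and 182, 27, 118 and 90 in the vehicle libraries of the same numbers. After TMM normalisation these were 189, 85.3, 109 and 86.1 CPM against 64.9, 10.5, 15.9 and 13.5 CPM. Every pyraclostrobin library was above every vehicle library, and in both groups NSEQ428 was the highest.

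For Mt2, the values were 219, 84.9, 124 and 86.9 CPM with pyraclostrobin and 65.3, 7.40, 9.70 and 11.7 CPM with vehicle. For Mt3, they were 178, 77.0, 80.7 and 84.9 CPM against 71.7, 26.1, 25.1 and 24.0 CPM. For Slc30a1, they were 105, 91.7, 97.8 and 76.6 CPM against 62.4, 62.3, 60.9 and 62.3 CPM. The groups did not overlap for any of the 4 genes, and Slc30a1 was almost constant across the vehicle libraries. How many of all genes were separated in this way was not counted, and 21.3% of the genes tested were called in this comparison.

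The mean level of Mt1 was 117 ± 48.9 CPM (SD, n = 4) against 26.2 ± 25.9, a log2 difference of 2.22 (SE 0.52) with an adjusted p = 0.00660 in edgeR's quasi-likelihood test. Mt2 reached 129 ± 62.6 against 23.5 ± 27.9 CPM, a log2 difference of 2.53 (SE 0.62, edgeR adjusted p = 0.00863). Slc30a1 reached 92.7 ± 12.0 against 62.0 ± 0.71 CPM, a log2 difference of 0.58 (SE 0.13, edgeR adjusted p = 0.00430). All 3 passed the threshold of 0.01, at which 21.3% of 12324 genes tested were called. Mt3 reached 105 ± 48.6 against 36.7 ± 23.3 CPM, with a log2 difference of 1.55 (SE 0.39) and an adjusted p = 0.0102, just above the threshold. This outcome depended on the settings: Mt3 was called with DESeq2 (adjusted p = 0.000510), with RLE size factors (edgeR adjusted p = 0.00984) and without a filter on low counts (edgeR adjusted p = 0.00549). It was also called in edgeR with the library number as a block, a fit that called more of all genes.

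Leaving out 1 library kept the direction of all 4 genes. The calls of Mt1 and Mt2 at 0.01 were lost in 7 of the 8 fits that left out 1 library, all except the one without vehicle library NSEQ428, and that of Slc30a1 in 6, with adjusted p of at most 0.0282. Without both NSEQ428 libraries, the log2 differences were 2.75 for Mt1, 3.29 for Mt2, 1.70 for Mt3 and 0.52 for Slc30a1, and all 4 were called (adjusted p of at most 0.000308). In that fit, far more of all genes were called than in the main fit as well.

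**Figure D5:**
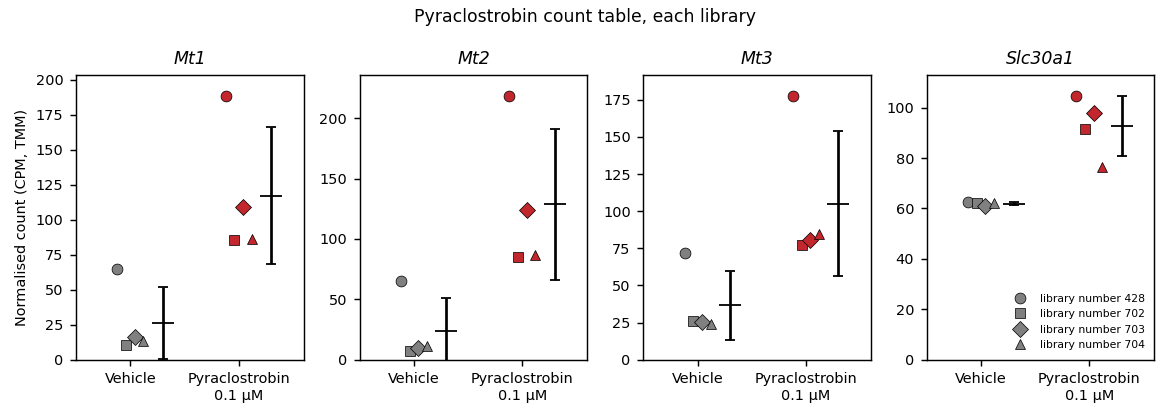
Normalised counts (CPM after TMM, linear axis from 0) of Mt1, Mt2, Mt3 and Slc30a1 in each library of vehicle (grey) and of pyraclostrobin at 0.1 μM (red), with a symbol for each library number and the mean and SD of 4 libraries beside the points (bars are cut at 0). All pyraclostrobin points lie above all vehicle points, and NSEQ428 is the highest point of both groups for Mt1, Mt2 and Mt3.

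The lists around the members were called in part. Of 10 measured zinc importers 3 were called higher, Slc39a1 by 1.43, Slc39a14 by 0.74 and Slc39a13 by 0.66, and Slc39a3 fell by 0.69. Of 7 zinc exporters, Slc30a10 fell by 0.96 and Slc30a9 by 0.66, and Slc30a1 rose. Mtf1 differed by -0.08 (SE 0.15, adjusted p = 0.716). Of 13 NRF2 targets 8 were called higher, led by Hmox1 at 3.99, Gsta4 at 2.99, Nqo1 at 2.04 and Gstm1 at 2.01.

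Markers of other cells moved in the count table as well. The summed level of the 12 astrocyte markers was 1283 to 4226 CPM with pyraclostrobin and 733 to 1319 CPM with vehicle, and NSEQ428 was the highest in both groups. The 10 microglia markers summed to 89.6 to 153.4 against 23.4 to 33.2 CPM, the 8 endothelial and mural markers to 624 to 861 against 35.9995 to 91.6 CPM, and the 8 oligodendrocyte lineage markers to 203 to 329 against 99.3 to 197 CPM. The 12 neuron markers summed to 4544 to 5696 against 9370 to 10226 CPM. Gjb6 (astrocytes) was at 0 in the vehicle libraries, Sox10 (oligodendrocyte lineage) and Tek (endothelium) in the pyraclostrobin libraries, and Cldn5 (endothelium) in both groups. Of the astrocyte markers that passed the filter on low counts, 3 of 10 were called higher. For microglia it was 7 of 7, for vascular cells 3 of 3, and of the neuron markers 9 of 12 were called lower. A marker could pass that filter through the pyraclostrobin libraries alone, so these shares do not describe all markers of the lists. The part of these shifts in the levels of Mt1, Mt2, Mt3 and Slc30a1 was not tested.

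Topotecan, an inhibitor of topoisomerase 1 with 32 libraries at 0.3 μM, raised Slc30a1, and no metallothionein was called. Slc30a1 deviations ran from 0.00 through a median of 0.30 to 0.61 in these libraries, against -0.27, 0.06 and 0.45 in vehicle, and the groups overlapped. The difference was 0.24 (SE 0.04, limma adjusted p = 2.77e-08), and 31 of 32 topotecan libraries lay above the vehicle mean. Mt1 differed by -0.10 (SE 0.11), Mt2 by -0.07 (SE 0.08) and Mt3 by -0.01 (SE 0.08), with adjusted p of 0.489 to 0.921.

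With topotecan, 45.7% of all genes were called, so a call of Slc30a1 alone was not unusual. Slc39a10 fell by 0.22 (SE 0.04, adjusted p = 1.77e-07) and Mtf1 rose by 0.07 (SE 0.03, adjusted p = 0.0281). Of the astrocyte markers 6 of 10 were called lower and 1 higher, and of the neuron markers 8 of 12 were called lower and 2 higher.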

How the data were processed

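Polyadenylated RNA of each culture was sequenced from TruSeq RNA libraries, and whether counting used strand is not given in the sources used here. The authors passed reads through TagDust, used TopHat for alignment (build mm9), took out ribosomal RNA and counted exons of RefSeq genes joined by symbol. The deposited count values for pyraclostrobin are not normalized. For the screen, the authors deposited log10 RPKM values after quantile normalization, centring on each gene's median and removal of culture and sequencing batch, so neither depth nor batch can be examined, and the labels name no batches. Totals in the count table were 2409623 to 7833440, at which 1 CPM is 2.41 to 7.83 counts. Intervals cover the spread between chemicals in fits on 1 median per chemical. In fits on single libraries they cover a spread pooled over all groups, to which vehicle (49 libraries) and topotecan (32) add most. For Slc30a1 the SD was 0.12 among vehicle libraries and 0.26 between libraries of the same chemical, so its intervals for single chemicals may be too narrow.

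Screen values were converted to log2 and fitted in limma 3.58.1 without a variance trend, either with 1 median per chemical or with 1 mean per chemical over single libraries, which assumes that chemicals with 1 library vary like the replicated ones. P-values were adjusted by Benjamini-Hochberg over all genes at 0.05. Counts were fitted in edgeR 4.0.16 (TMM, at least 10 counts in at least 4 libraries, quasi-likelihood test, threshold 0.01). DESeq2 1.42.0 was an alternative. Fits were tested on simulated data with independent noise and no batches or spread between chemicals. Such data cannot show whether calls from 1 or 2 libraries hold. RPKM values per exon length were computed from the counts and GENCODE vM1, which is not the authors' annotation. Libraries are separate samples by label, and where nothing says that they came from separate cultures, p-values measure only the spread between them. Deviations of same-numbered count libraries correlated at 0.38, 0.10, -0.03 and 0.16, and the study speaks of matched vehicle controls without saying what a shared number stands for. Each deviation is taken from a mean of only 4 libraries, so these values cannot decide whether a shared number pairs the libraries. The main fit left pairing out, and the fit with the number as a block is an alternative. A second count table, of sulforaphane with fenamidone, has 6 columns whose names do not identify samples and was not used here. Members, chemical classes and gene lists were chosen with earlier results of these data known. Besides the 4 members, the text names up to 4 called genes per list by size, Mtf1, the highest and lowest genes called with the metal dithiocarbamates (there were none), the 3 genes most like each member and the 5 highest and 3 lowest chemicals for each member. Marker lists held 12 astrocyte, 10 microglia, 12 neuron, 8 oligodendrocyte lineage and 8 endothelial and mural genes. The omission of single thiram, mancozeb or both NSEQ428 libraries and the adjustment over all pairs were added after seeing the data.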

Additional observations from a re-analysis of the deposited data

Results flagged for a closer look

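In 12 groups of 4 libraries tested by Dixon's test at the 95% level (the 4 genes in both groups of the count table and in the diethyltoluamide libraries of the screen), 1 library lay far from the others in 5. Chance flags about 1 in 20 such groups. Among the vehicle libraries of the count table, NSEQ428 was high for Mt1 (64.9 CPM after TMM), Mt2 (65.3 CPM) and Mt3 (71.7 CPM). Among the pyraclostrobin libraries, NSEQ428 was high for Mt3 (178 CPM). Vehicle library NSEQ703 was low for Slc30a1 (60.9 CPM), where the highest of the 4 was 62.4 CPM. The summed astrocyte markers were also highest in NSEQ428, at 4226 CPM with pyraclostrobin and 1319 CPM with vehicle, and their part in its values was not tested.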

How the results depend on the processing

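Over 101 results and 520 alternative values, 412 kept their direction and their side of the threshold (or their size), 32 moved, 21 reversed, 10 gained a call and 45 lost one. Where no cause is given, it was not tested. Testing variably expressed genes only leaves fewer genes, and Slc30a1 is not among them. The genes called then numbered 1 for the metal dithiocarbamates (0 before), 6 for those with zinc (10), 2 for the thiol-reactive fungicides (7), 468 for complex III inhibitors (2733), 1793 for topotecan (6075) and 138 over the pairs (214), and Mt1 with complex III inhibitors, at 0.55, was no longer called (adjusted p = 0.0764). With single libraries in place of medians, 89 genes were called for zinc, 33 for thiol-reactive fungicides and 1 for metal against metal-free compounds, and the zinc difference for Mt1 turned to -0.013. Against vehicle libraries, 244 genes were called for metal and 491 for zinc, Mt2 with thiol-reactive fungicides turned to 0.035, and Mt3 with complex III inhibitors, at 0.33, was called (adjusted p = 0.0420). With p adjusted over all pairs, 127 genes were called, and the differences from thiram of mancozeb for Mt1 (-2.02) and Mt2 (-1.56) and of metiram-zinc for Slc30a1 (-0.80) were not.

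In the count table, Mt3 was called with RLE size factors (1.55), without a filter (1.47), at a threshold of 0.05 (1.55, with 4301 genes called), with DESeq2 (1.53) and without both NSEQ428 libraries (1.70, with 4874 genes called). Slc30a1, at 0.48, was not called without a filter (adjusted p = 0.0172). With a replicate block from the library numbers, Mt1 was at 2.44, Mt2 at 2.85, Mt3 at 1.59 and Slc30a1 at 0.57, all 4 called, with 3135 genes in place of 2631. NSEQ702, NSEQ703 and NSEQ704 each correlated better with another number than with their own. NSEQ428 correlated best with its own (0.38, against at most -0.22 with another).

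Leaving out 1 chemical or library at a time gave these ranges. For metal dithiocarbamates, 1 to 10 genes were called. For zinc, Mt1 ran from -0.16 to 0.24, Mt2 from -0.033 to 0.19 and the genes called from 0 to 10. For thiol-reactive fungicides, Mt1 ran from -0.085 to 0.31, Mt2 from -0.20 to 0.11, Mt3 from -0.11 to 0.16 and the genes called from 2 to 55. For complex III inhibitors, Mt1 ran from 0.46 to 0.64, Mt2 from 0.41 to 0.67 and the genes called from 1749 to 3240. For metal against metal-free compounds, Mt1 ran from -1.66 to 0.27, Mt3 from -0.31 to 0.055, Slc30a1 from -0.70 to 0.014 and the genes called from 0 to 2. For thiram against vehicle, Mt1 ran from 1.52 to 2.47, Mt2 from 1.16 to 2.08, Mt3 from -0.11 to 0.19 and Slc30a1 from 0.12 to 1.10. For mancozeb against vehicle, Mt1 ran from -0.16 to 0.11, Mt2 from -0.050 to 0.17 and Slc30a1 from -0.31 to 0.066.

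For mancozeb against thiram, Mt1 ran from -2.49 to -1.55, Mt2 from -2.02 to -1.11, Mt3 from -0.027 to 0.27 and Slc30a1 from -1.22 to -0.25. Slc30a1 ran from -1.06 to -0.089 for maneb against thiram, from -1.29 to -0.32 for metiram-zinc against thiram and from 0.23 to 1.20 for thiram against metam-sodium hydrate. Mt3 ran from -0.14 to 0.16 for maneb and from -0.12 to 0.18 for metiram-zinc against thiram. For pyraclostrobin counts, Mt1 ran from 1.86 to 3.08, Mt2 from 2.12 to 3.68, Mt3 from 1.13 to 2.07, Slc30a1 from 0.46 to 0.61 and the genes called from 1699 to 4136. The comparison of sulforaphane with fenamidone and its alternatives were not run, and the depth of the screen libraries is unknown.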
